A study of Mus musculus with 2 samples.

Results

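Glycolysis and glucose uptake were described through 10 genes chosen by name, and 8 of them, Slc2a1, Hk2, Pfkm, Aldoa, Gapdh, Pgam2, Eno3 and Pkm, were found by symbol among the 19465 genes counted. Eno1 and Ldha were not analysed here. The counts came from 2 sections of mouse back skin treated with imiquimod (IMQ), a Toll-like receptor 7 agonist that induces psoriasis-like inflammation. The first group was 1 section of an S1pr2 f/f mouse, which carries floxed S1pr2 alleles and no Cre, and the other was 1 section of an S1pr2 f/f K14-Cre mouse, whose keratinocytes lose the floxed gene through Cre driven by the keratin 14 promoter. Both mice were 8 weeks old, their back skin was depilated 1 day before treatment, and 62.5 mg of 5% IMQ cream was applied daily for 7 days. The tissue was formalin-fixed and paraffin-embedded, cut at 10 μm, and probes were captured on spots of an 11 mm array, so each spot holds several cells. No untreated section was analysed here, and with 1 section for each genotype no test was possible. Intervals are 95% intervals for counting error only, and they leave out the spread between mice.

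Glucose enters a cell through transporters of the SLC2A (GLUT) family, is phosphorylated by a hexokinase and is broken down to pyruvate by the enzymes of glycolysis. Several steps have a muscle isoform and a counterpart used by most other tissues: phosphofructokinase (Pfkm against Pfkl and Pfkp), phosphoglycerate mutase (Pgam2 against Pgam1) and enolase (Eno3 against Eno1). Keratinocytes take up glucose mainly through Slc2a1 (GLUT1), whereas skeletal muscle also uses the insulin-responsive Slc2a4 (GLUT4) and stores glucose as glycogen.

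The S1pr2 f/f section held 1282 spots and 5315351 UMIs, with a median of 3542.5 UMIs per spot, and the S1pr2 f/f K14-Cre section held 981 spots and 2845826 UMIs, with a median of 2319. Spots were clustered without the genes of the pathway, and clusters were assigned to a region by fixed markers. The epidermal region had 180 spots (879759 UMIs) in the S1pr2 f/f section, led by the cornified envelope genes Lce3a, Hrnr and Sprr2b, and 261 spots (770986 UMIs) in 2 clusters of the S1pr2 f/f K14-Cre section, led by Intu, Slc16a14 and Tfap2c and by Sprr2i, Lce3a and Lce3b. These clusters held between 10 and 13 of the 15 epidermis markers at 2-fold or more above the remaining spots. The muscle region had 334 spots (1013991 UMIs) in the S1pr2 f/f section and 294 spots (694595 UMIs) in the S1pr2 f/f K14-Cre section, and 8 to 10 of the 10 muscle markers passed the same limit in its clusters. The regions were not equally pure. Epidermis markers made up 16951 counts per 1000000 UMIs (CPM) of the muscle region in the S1pr2 f/f section and 2758 CPM in the S1pr2 f/f K14-Cre section, and muscle markers 838 and 2703 CPM of the epidermal regions. S1pr2 itself gave 11 UMIs in the epidermal region of the S1pr2 f/f section and 13 in that of the S1pr2 f/f K14-Cre section, so these counts did not check the genotype, and where its probes lie relative to the floxed part is not given in the sources used here.

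Promoters of 3 members are shown because these genes mark the opposite ends of the comparison of the regions: Eno3 and Pgam2 were higher in muscle and Slc2a1 was higher in the epidermal region. Each run is the 250 bases before the RefSeq start, on the coding strand (GRCm38.p6, which corresponds to the mm10 build of the submitters' processing notes), at chr11:70656926-70657175 (plus strand) for Eno3, chr11:5803797-5804046 (minus strand) for Pgam2 and chr4:119108495-119108744 (plus strand) for Slc2a1. Capitals mark, on either strand and in all 3 runs, CANNTG, the E-box read by myogenic factors among others, and ACGTG or GCGTG, the core letters of the hypoxia response element.
Eno3: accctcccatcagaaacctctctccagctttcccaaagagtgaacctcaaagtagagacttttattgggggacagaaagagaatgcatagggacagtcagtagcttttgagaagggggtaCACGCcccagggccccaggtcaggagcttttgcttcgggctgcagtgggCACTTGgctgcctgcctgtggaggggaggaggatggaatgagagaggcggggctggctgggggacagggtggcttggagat
Pgam2: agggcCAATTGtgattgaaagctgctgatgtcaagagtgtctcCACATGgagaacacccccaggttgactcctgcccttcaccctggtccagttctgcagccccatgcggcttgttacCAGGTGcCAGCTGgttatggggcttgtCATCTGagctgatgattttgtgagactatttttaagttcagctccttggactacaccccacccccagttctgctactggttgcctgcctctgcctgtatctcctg
Slc2a1: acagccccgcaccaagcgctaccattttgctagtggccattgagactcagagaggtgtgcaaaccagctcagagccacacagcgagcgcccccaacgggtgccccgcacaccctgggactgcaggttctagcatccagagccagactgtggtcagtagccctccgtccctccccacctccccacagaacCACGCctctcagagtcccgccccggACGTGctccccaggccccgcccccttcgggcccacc
Pgam2 held 5 matches to CANNTG, at 245, 207, 132, 125 and 105 bases before the start, and Eno3 held 1, at 81 bases. Eno3 also held 1 GCGTG, read on the other strand, at 130 bases before the start. Of 32851 promoter windows of the same length, 66.2% held at least 1 match to CANNTG. Slc2a1 held no CANNTG, 1 ACGTG at 36 bases and 1 GCGTG, read on the other strand, at 61 bases before the start. ACGTG was found in 16.6% and GCGTG in 28.2% of all windows, and the marked matches do not overlap. CAGCTG, a form of CANNTG searched on its own, was found in Pgam2 only among the 3 runs and in 13.0% of all windows. For MEF2 only 1 pattern was searched, with C fixed as its first and G as its last letter. That pattern had no match in the 3 runs and was found in 3.20% of all windows. Other forms of the MEF2 motif, such as those ending in A, were not searched. Such a form, ctatttttaa, can be read in the Pgam2 run above, and its share over all windows was not counted. Whether the runs hold further forms is not known from this search. These matches are letters in a window and no measure of binding.

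Within each section the members split by region (the plot of the 8 genes by region). Eno3, Pgam2 and Pfkm were 39.6- to 92.6-fold higher in the muscle region than in the epidermal region, Aldoa was 8.94- and 15.5-fold higher, and Slc2a1 lay the other way in both sections. Pkm and Hk2 differed by less than 2.3-fold, and Gapdh gave too few UMIs to order the regions. Fewer cells of a type and less RNA per cell cannot be told apart in such spots. Of the members with at least 30 UMIs over both regions, 4 of 7 in the S1pr2 f/f section were at least 2-fold higher in muscle and 1 was at least 2-fold lower, against 33.5% and 13.8% of the 8244 genes with that many UMIs. In the S1pr2 f/f K14-Cre section 5 of 8 were higher and 1 lower, against 18.3% and 29.4% of 8292 genes. The median log2 ratio of these members was 3.16 and 2.56, and that of all genes 0.40 and -0.25. TMM scaling, which sets ratios by genes of middling change, moved every log2 ratio by -0.48 in the S1pr2 f/f and 0.59 in the S1pr2 f/f K14-Cre section, kept 4 and made 6 members higher with 1 lower in each, and turned only the small ratios of Hk2 and Pkm in the S1pr2 f/f section, to -0.21 and -0.22. With TMM 24.0% of all genes were higher and 22.3% lower in the muscle region of the S1pr2 f/f section, and 30.8% and 18.2% in that of the S1pr2 f/f K14-Cre section.

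**Figure D1:**
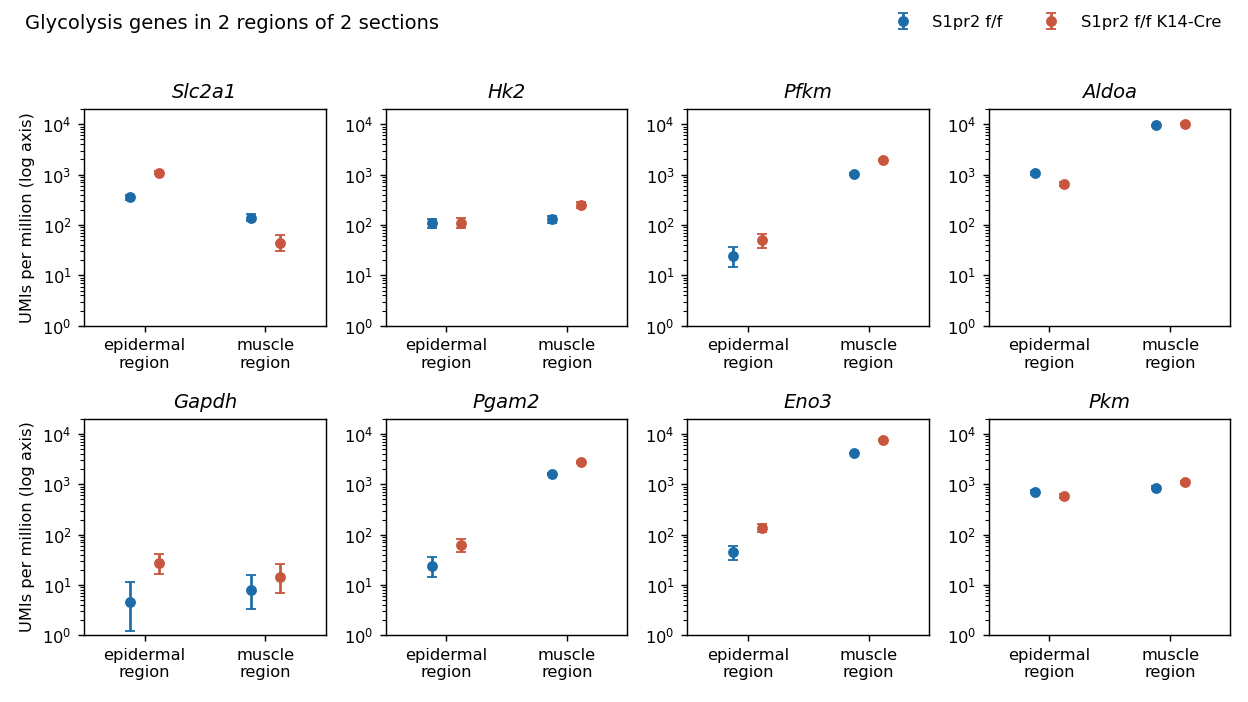
Level of each member in CPM of the region (log axis) in the epidermal and muscle regions of the S1pr2 f/f section (blue) and the S1pr2 f/f K14-Cre section (red); bars are exact Poisson 95% intervals and each point is 1 region of 1 section. Pfkm, Pgam2 and Eno3 lie between 1025 and 7630 in muscle and between 23.9 and 136 in the epidermal region, Slc2a1 slopes the other way, and Gapdh stays below 30 everywhere.

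Counts of the glucose transporters Slc2a1 and Slc2a4 differed between the regions in opposite directions. Slc2a1 gave 310 UMIs (352 CPM, 314 to 394) in the epidermal region and 142 UMIs (140 CPM, 118 to 165) in the muscle region of the S1pr2 f/f section. In the S1pr2 f/f K14-Cre section it gave 835 UMIs (1083 CPM, 1011 to 1159) and 31 UMIs (44.6 CPM, 30.3 to 63.3). Its muscle over epidermal log2 ratio was -1.33 (-1.63 to -1.04) and -4.60 (-5.17 to -4.08), lower in muscle in both sections, with wider separation in the S1pr2 f/f K14-Cre section. Slc2a4, the muscle and fat transporter, went the opposite way, from 4 UMIs (4.55 CPM) to 327 UMIs (322 CPM) in the S1pr2 f/f section and from 17 UMIs (22.0 CPM) to 213 UMIs (307 CPM) in the S1pr2 f/f K14-Cre section. Slc2a1 therefore made up 98.7% and 98.0% of the UMIs of these 2 transporters in the epidermal regions, and 30.3% (26.1 to 34.7) and 12.7% (8.80 to 17.5) in the muscle regions. Slc2a3 gave at most 11 UMIs in any of these regions. The muscle region of the S1pr2 f/f section, where Slc2a1 was the higher of the 2 muscle values, also held the larger amount of epidermis markers given above, and their part in its Slc2a1 count was not tested.

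The hexokinases changed places less sharply. Hk2, the inducible hexokinase of muscle, fat and proliferating cells, gave 95 UMIs (108 CPM) in the epidermal and 132 (130 CPM) in the muscle region of the S1pr2 f/f section, and 85 (110 CPM) and 173 (249 CPM) in the S1pr2 f/f K14-Cre section. Its log2 ratio was 0.27 (-0.12 to 0.67), an interval that holds 0, and 1.18 (0.79 to 1.57). Hk1, the housekeeping hexokinase, was lower in muscle in both sections, with log2 ratios of -1.07 and -1.05. The Hk2 share of the UMIs of both genes was 33.8% and 37.0% in the epidermal regions and 56.4% and 73.3% in the muscle regions. Glucose phosphate isomerase (Gpi1) was moderately higher in muscle, at log2 ratios of 0.55 (0.37 to 0.73) and 1.00 (0.81 to 1.19).

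Phosphofructokinase isoforms also lay on opposite sides of the comparison. Pfkm gave 21 UMIs (23.9 CPM) in the epidermal and 1039 (1025 CPM) in the muscle region of the S1pr2 f/f section, and 38 (49.3 CPM) and 1356 (1952 CPM) in the S1pr2 f/f K14-Cre section, log2 ratios of 5.42 and 5.31. The liver isoform Pfkl and the platelet isoform Pfkp were lower in muscle, at -1.90 and -1.41 in the S1pr2 f/f section and -3.73 and -1.66 in the S1pr2 f/f K14-Cre section. Pfkm made up 7.39% and 12.4% of the UMIs of the 3 genes in the epidermal regions and 90.9% and 96.4% in the muscle regions. Such a share depends on the probes of each gene, so its difference between regions can be read but its size alone cannot (the plot of isoform shares).

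Aldoa, the aldolase of muscle and most other tissues, was well counted everywhere. It gave 931 UMIs (1058 CPM) and 9596 UMIs (9464 CPM) in the epidermal and muscle regions of the S1pr2 f/f section, and 512 (664 CPM) and 7145 (10287 CPM) in the S1pr2 f/f K14-Cre section. The log2 ratio of muscle over epidermis was 3.16 (3.06 to 3.26) and 3.95 (3.82 to 4.09). Aldoc, the brain isoform, gave 23 and 7 UMIs in the S1pr2 f/f section and 21 and 5 in the S1pr2 f/f K14-Cre section.

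Phosphoglycerate mutase isoforms differed in opposite directions, as those of phosphofructokinase did. Pgam2, the muscle isoform, gave 21 UMIs (23.9 CPM) in the epidermal and 1597 (1575 CPM) in the muscle region of the S1pr2 f/f section, and 48 (62.3 CPM) and 1892 (2724 CPM) in the S1pr2 f/f K14-Cre section. Pgam1, its widely expressed counterpart, gave 666 (757 CPM) and 293 (289 CPM), and 635 (824 CPM) and 108 (155 CPM). The log2 ratios were 6.04 and 5.45 for Pgam2 and -1.39 and -2.41 for Pgam1. Pgam2 thus supplied 3.06% and 7.03% of the UMIs of both genes in the epidermal regions and 84.5% and 94.6% in the muscle regions.

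**Figure D2:**
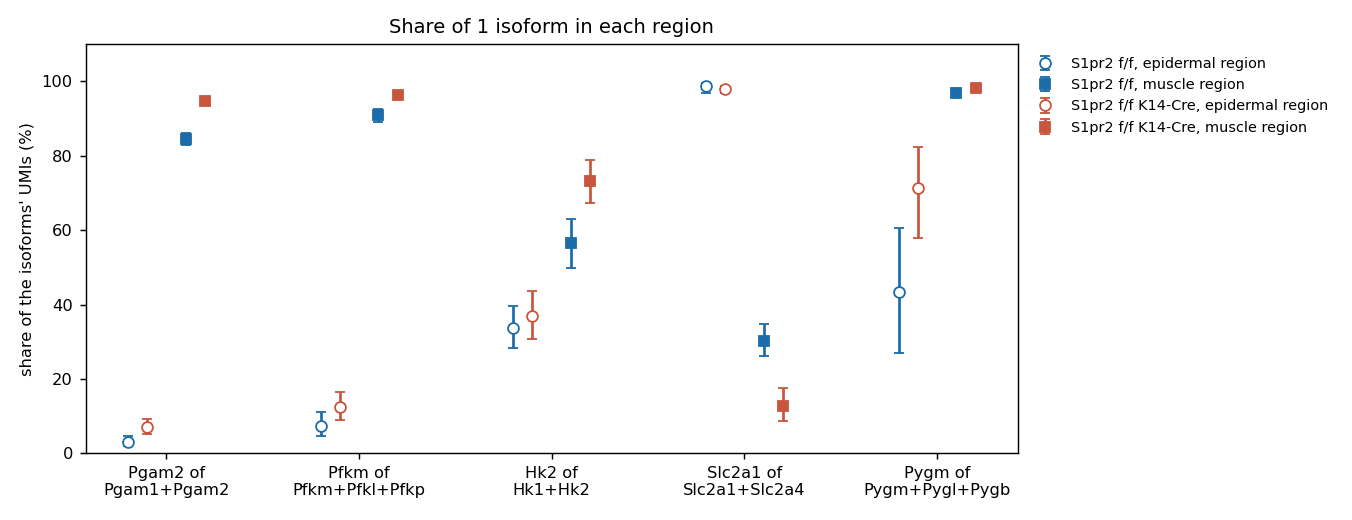
Share of 1 isoform among the UMIs of the named isoforms (%), in the epidermal (open circles) and muscle (filled squares) regions of the S1pr2 f/f (blue) and S1pr2 f/f K14-Cre (red) sections, with Clopper-Pearson 95% intervals. Pgam2 and Pfkm lie below 13% in the epidermal and above 84% in the muscle regions, and the Slc2a1 share runs the other way.

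Eno3, the muscle enolase, had the highest ratio of the members. It gave 39 UMIs (44.3 CPM, 31.5 to 60.6) in the epidermal and 4163 UMIs (4106 CPM, 3982 to 4232) in the muscle region of the S1pr2 f/f section, a log2 ratio of 6.53 (6.08 to 7.03). The S1pr2 f/f K14-Cre section gave 105 UMIs (136 CPM, 111 to 165) and 5300 UMIs (7630 CPM, 7426 to 7839), a log2 ratio of 5.81 (5.53 to 6.10). Eno2, the neuronal enolase, gave at most 11 UMIs in any of these regions. Pkm, which encodes the M1 and M2 forms of pyruvate kinase that a count for the whole gene does not separate, was the most even of the well-counted members. It gave 631 UMIs (717 CPM) and 866 UMIs (854 CPM) in the S1pr2 f/f section, and 461 (598 CPM) and 761 (1096 CPM) in the S1pr2 f/f K14-Cre section. Its log2 ratios were 0.25 (0.10 to 0.40) and 0.87 (0.70 to 1.04).

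Over the 15 clusters of both sections, the genes most like Eno3 were the muscle genes Mylpf, Ckm and Myoz1, with a Pearson correlation of log2(CPM + 10) of 0.998, 0.998 and 0.997 among 3469 genes with at least 500 UMIs. Those most like Slc2a1 were Wdr61, F11r, which encodes a tight junction protein, and Tmpo, at 0.978, 0.966 and 0.959. The clusters differ in depth and tissue, and the muscle genes helped to define them, so these values describe the clusters only. Among the named regions, Slc2a1 was not confined to the epidermis. In the S1pr2 f/f section its highest level, 527 CPM, was in the cluster led by the sebaceous gland gene Awat1 and Serpina3b, above the 352 CPM of the epidermal region. In the S1pr2 f/f K14-Cre section the 2 epidermal clusters were highest, at 991 and 1241 CPM, and the cluster with sebaceous markers had 479 CPM. Eno3, in turn, had 3183 CPM in the 90 spots of the S1pr2 f/f K14-Cre section led by the developmental muscle genes Tnnc1, Myh8 and Tnni1, and 3211 CPM in the cluster with fat markers, against 8477 and 6172 CPM in the 2 muscle clusters.

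**Figure D3:**
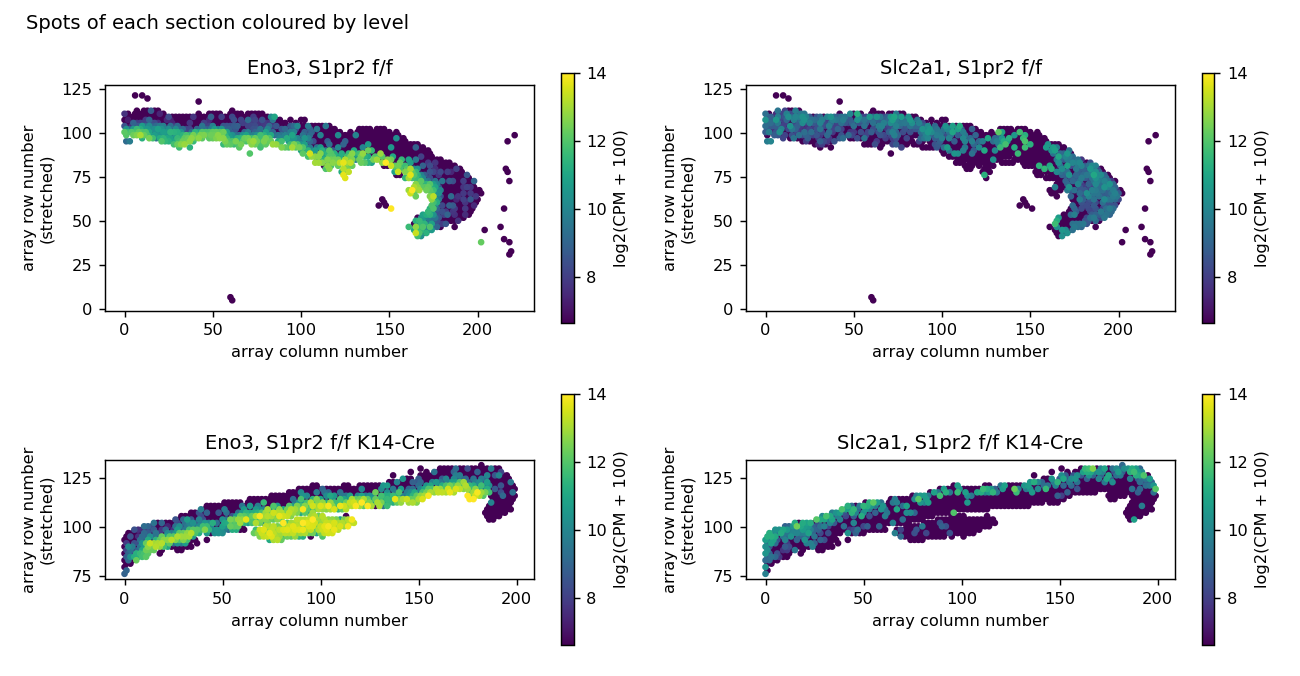
Spots with at least 50 UMIs of the S1pr2 f/f (top) and S1pr2 f/f K14-Cre (bottom) sections at their array positions, coloured by log2(CPM + 100) of Eno3 (left) and Slc2a1 (right); rows are stretched to keep the shape of the array. Eno3 fills a band along the lower edge of each section and a separate piece of the S1pr2 f/f K14-Cre section, and Slc2a1 is strongest along the upper edge of that section.

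The same order was seen from the surface inward, without clusters. Within the S1pr2 f/f section Eno3 went from 40.7 CPM in the uppermost tissue spot of each array column (203 spots) to 2816 CPM in the fifth spot down (157 spots). In the S1pr2 f/f K14-Cre section it went from 131 CPM (200 spots) to 8807 CPM in the sixth (56 spots). Spots were counted down each column across any gap in the tissue. Deeper places hold fewer columns, so the places compared are not of the same columns. In the S1pr2 f/f section Slc2a1 had 418 CPM at the top, 525 CPM in the spot below it and 185 CPM at the depth of the Eno3 maximum. The S1pr2 f/f K14-Cre section had 1264, 553 and 40.4 CPM at the matching places, the last on 7 UMIs. Pkm stayed between 410 and 929 CPM in the S1pr2 f/f section and between 478 and 1148 CPM in the S1pr2 f/f K14-Cre section. Below these maxima Eno3 was lower again, at 351 CPM in the tenth spot of the S1pr2 f/f section (23 spots) and 5323 CPM in the seventh of the S1pr2 f/f K14-Cre section (26 spots). Pgam2 peaked at the same depths, at 1035 and 2337 CPM, and had 71.3 CPM in the ninth spot of the S1pr2 f/f section. The S1pr2 f/f section bends at its right end, and epidermis markers are high again in its ninth spot down, at 50741 CPM.

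**Figure D4:**
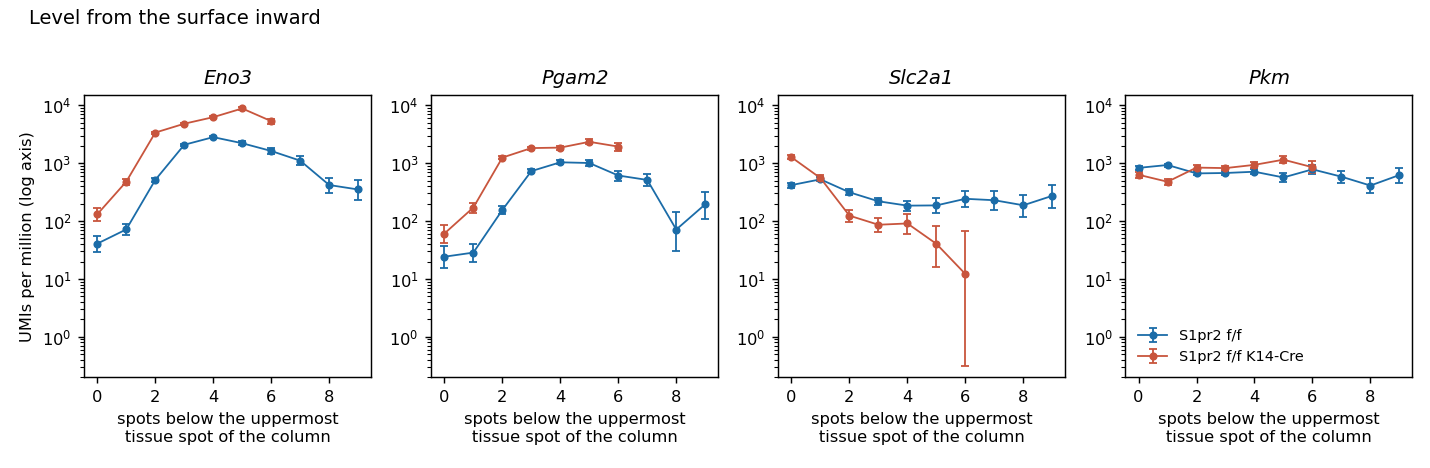
Level of Eno3, Pgam2, Slc2a1 and Pkm in CPM (log axis) against the number of tissue spots below the uppermost spot of each array column, for the S1pr2 f/f (blue) and S1pr2 f/f K14-Cre (red) sections, with exact Poisson 95% intervals; depths with fewer than 20 spots are not drawn. Eno3 and Pgam2 climb inward to the fifth (S1pr2 f/f) or the sixth (S1pr2 f/f K14-Cre) spot and are lower again below it. Slc2a1 is highest in the second (S1pr2 f/f) or the uppermost (S1pr2 f/f K14-Cre) spot and lower from the third spot down. Pkm varies less than the others.

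Inside the muscle region the muscle isoforms varied little with the Myh4 share of the spots. Spots were ordered by the share of Myh4, the fast IIb myosin heavy chain, among Myh4, Myh1, Myh2 and Myh7. The highest and lowest of 3 equal parts were compared. Spots with fewer than 10 UMIs of these genes were left out, 104 in the S1pr2 f/f and 32 in the S1pr2 f/f K14-Cre section. In the S1pr2 f/f section the median Myh4 share was 42.9% in the lowest and 77.8% in the highest part. It was 66.5% and 90.9% in the S1pr2 f/f K14-Cre section. Myh7 gave at most 13 UMIs in any part, so spots led by Myh7 were not compared. Eno3 gave 3977 CPM in the 77 spots with the lowest and 4634 CPM in the 76 spots with the highest Myh4 share of the S1pr2 f/f section, a log2 ratio of 0.22 (0.11 to 0.34). The S1pr2 f/f K14-Cre section gave 6940 and 7979 CPM in 88 and 87 spots, a log2 ratio of 0.20 (0.10 to 0.30), with 8749 CPM in the middle part. Aldoa was likewise slightly higher, at 0.38 (0.30 to 0.45) and 0.25 (0.17 to 0.34), whereas the intervals of Pfkm, Pgam2 and Pkm held 0 in both sections. Hk2 went opposite ways, at -0.76 (-1.45 to -0.09) in the S1pr2 f/f section and 0.50 (-0.11 to 1.13) in the S1pr2 f/f K14-Cre section, and the difference was not tested. Slc2a1 did so too, at -0.85 (-1.55 to -0.17) and 2.46 (0.67 to 4.87), the latter on 17 and 3 UMIs. Spots of the lowest and highest parts had medians of 2305 and 4310.5 UMIs in the S1pr2 f/f section. The medians were 2005 and 2194 in the S1pr2 f/f K14-Cre section, and the part of depth in these ratios was not tested.

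Inside the epidermal region Slc2a1 was lowest where basal keratins made up the smallest share. Spots were ordered by the share of Krt5 and Krt14, keratins of the basal layer, against Krt1 and Krt10, keratins of the layers above it. Slc2a1 gave 274 CPM in the 59 spots with the lowest and 459 CPM in the 58 spots with the highest basal share of the S1pr2 f/f section, a log2 ratio of 0.75 (0.34 to 1.16). The S1pr2 f/f K14-Cre section gave 770 and 1182 CPM in 84 and 83 spots, a log2 ratio of 0.62 (0.33 to 0.91), with 1191 CPM in the middle part. The interval of Aldoa held 0 in both sections. Pkm was at 0.04 (-0.25 to 0.33) and 0.50 (0.12 to 0.89), and Gpi1 at 0.04 (-0.31 to 0.38) and 1.18 (0.67 to 1.73). Spots of the lowest part had a median of 4132 UMIs against 3909 in the S1pr2 f/f section and 1709 against 2641 in the S1pr2 f/f K14-Cre section, and the part of depth in these ratios was not tested.

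The rest of the pathway was described through a list of 60 genes for uptake, glycolysis, lactate, regulators and glycogen, of which 55 were analysed and the 8 members are part. Within the S1pr2 f/f section 23 of 40 list genes above the 30 UMI minimum were at least 2-fold higher in muscle and 9 lower, against 33.5% and 13.8% of all genes, with a median log2 ratio of 1.91 against 0.40. Within the S1pr2 f/f K14-Cre section 18 of 35 were higher and 9 lower, against 18.3% and 29.4%, with a median of 1.17 against -0.25. With TMM these counts were 22 and 10, against 24.0% and 22.3%, and 22 and 6, against 30.8% and 18.2%. The number lower in the S1pr2 f/f K14-Cre section was thus near its background. Several glycogen genes were among those higher in muscle. Pygm, the muscle glycogen phosphorylase, gave 16 UMIs (18.2 CPM) in the epidermal and 1717 (1693 CPM) in the muscle region of the S1pr2 f/f section, and 42 (54.5 CPM) and 1640 (2361 CPM) in the S1pr2 f/f K14-Cre section. Its log2 ratios were 6.54 and 5.44. Phkg1, the catalytic subunit of muscle phosphorylase kinase, had log2 ratios of 7.45 (4.95 to 12.8, on 1 epidermal UMI) and 4.73, and glycogen synthase Gys1 of 3.98 and 3.94. The phosphatase subunit Ppp1r3c had 5.74 and 5.25, on 5 and 6 epidermal UMIs. Ppp1r3a, the muscle subunit of the same phosphatase family, gave 0 UMIs in the epidermal region of the S1pr2 f/f section, which allows up to 3.41 CPM (3 counts over the region), and 103 UMIs in muscle, at least 29.8-fold higher. It gave 11 and 109 UMIs in the S1pr2 f/f K14-Cre section. Among regulators, Pdk2, a kinase that restrains pyruvate oxidation, was higher in muscle by 5.83 and 2.96, on 5 and 31 epidermal UMIs. On the epidermal side stood Hif1a, the hypoxia-inducible factor, with log2 ratios of -1.40 and -2.17, and Pfkfb4, which makes the activator of phosphofructokinase, with -1.80 and -1.07.

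Between the sections Slc2a1 differed in the epidermal regions while its partner in the first step, Hk2, did so little. Slc2a1 was 3.07-fold (2.69 to 3.51) higher in the S1pr2 f/f K14-Cre section, a log2 ratio of 1.62 (1.43 to 1.81), and Hk2 was at 0.03 (-0.41 to 0.47). Markers of other cell types were higher in the same comparison, the sebaceous markers at 235 and 957 CPM (all 6 detected in both), dermis markers at 2135 and 8343 CPM, fat markers at 149 and 660 CPM and macrophage markers at 291 and 783 CPM. The share of the basal keratins Krt5 and Krt14 against Krt1 and Krt10 was also higher. In the middle part of the spots ordered by it, its median was 60.2% in the S1pr2 f/f and 87.5% in the S1pr2 f/f K14-Cre section. The part of these markers and of the keratin share in the Slc2a1 ratio was not tested. Aldoa and Pkm were lower in the S1pr2 f/f K14-Cre section, at -0.67 (-0.83 to -0.52) and -0.26 (-0.44 to -0.09), but higher, at 0.45 and 0.86, when UMIs were divided by those of the epidermis markers. Eno3, Pgam2 and Pfkm were higher, at 1.62 (1.08 to 2.19), 1.38 (0.62 to 2.20) and 1.05 (0.24 to 1.89), from 21 to 105 UMIs a region, and the summed muscle markers were 3.23-fold higher in the same comparison; their part in these ratios was not tested. The 8 members together had a log2 ratio of 0.23 (0.14 to 0.32). Of the 7 members with at least 30 UMIs over both sections, 4 were at least 2-fold higher and 0 lower, against 31.1% and 10.7% of 7573 genes.

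These epidermal ratios depended on the scaling. The 1226 chemosensory receptor genes (olfactory, vomeronasal, taste and trace amine), taken as a background because skin is not their usual site, were 9.03-fold higher in the epidermal region of the S1pr2 f/f K14-Cre section when summed, and the 15 epidermis markers were lower by 1.12 on the log2 scale. TMM moved every log2 ratio by -1.004, to 0.62 for Slc2a1 and Eno3, 0.38 for Pgam2, 0.04 for Pfkm, -0.97 for Hk2, -1.27 for Pkm and -1.68 for Aldoa. Then 0 of the 7 members were at least 2-fold higher and 2 lower, against 9.75% and 35.8% of all genes. Slc2a1 kept its direction under every definition and scaling tried, between 0.62 with TMM and 2.74 per epidermis marker UMI, and Hk2 turned to -0.97 and 1.15 under the same settings. Taken over the top 2 tissue spots of every array column, without clusters, the Slc2a1 log2 ratio was 0.90. The sections differed in the uppermost spots, at 418 (S1pr2 f/f) and 1264 CPM (S1pr2 f/f K14-Cre). In the spots below them the values were close, at 525 and 553 CPM, but the tissue was not alike. Epidermis markers stood there at 70061 CPM in the S1pr2 f/f and 25162 CPM in the S1pr2 f/f K14-Cre section. Muscle markers stood at 1308 and 10605 CPM. In the uppermost spots epidermis markers were at 111198 and 59418 CPM, and the part of these differences in the Slc2a1 values was not tested.

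In the muscle regions the muscle isoforms and Hk2 were higher in the S1pr2 f/f K14-Cre section by amounts close to that of the muscle markers. Hk2 was 1.91-fold, Pfkm 1.91-fold and Eno3 1.86-fold higher, and the 10 muscle markers together 1.80-fold. Pgam2 was higher at a log2 ratio of 0.79 (0.69 to 0.89), which turned to -0.06 when UMIs were divided by those of the muscle markers. Pkm and Aldoa differed less, at 0.36 (0.22 to 0.50) and 0.12 (0.08 to 0.16), and turned to -0.49 and -0.73 in the same way. Slc2a1 was lower, at -1.65 (-2.26 to -1.08), as were the epidermis markers, at -2.62, and their part in the Slc2a1 ratio was not tested. Per muscle marker UMI the members together stood at -0.37 in place of 0.47, and Hk2, Pfkm and Eno3 at 0.09, 0.08 and 0.05. None of the 7 members with at least 30 UMIs was at least 2-fold higher and 1, Slc2a1, was lower, against 3.42% and 14% of 8245 genes; with TMM 2 were higher and 1 lower, against 4.16% and 12.5%.

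**Figure D5:**
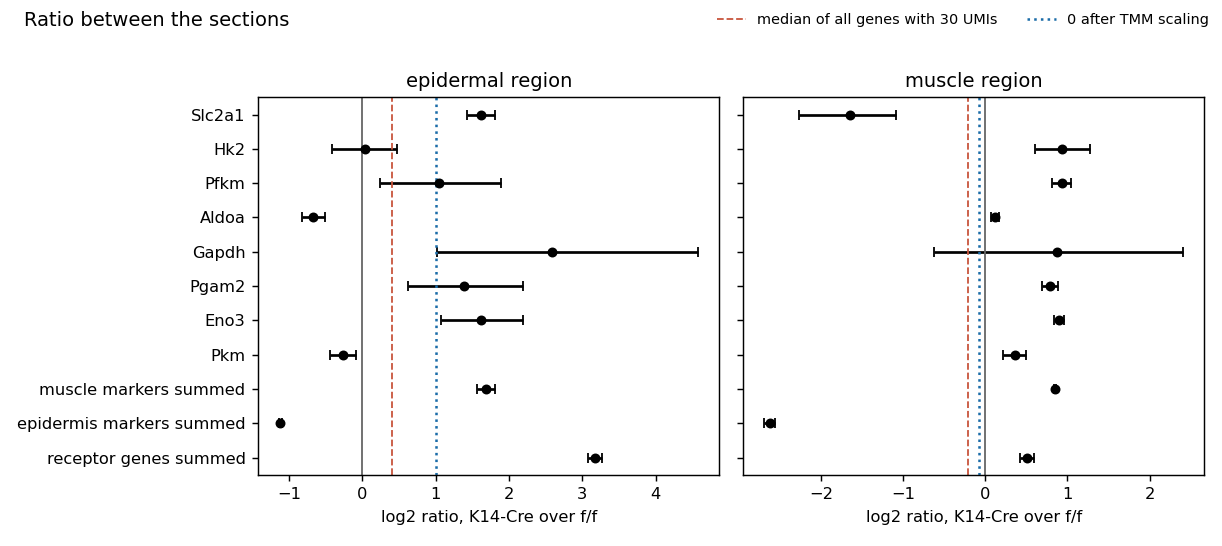
Log2 ratio of the S1pr2 f/f K14-Cre over the S1pr2 f/f section for the 8 members, the summed muscle and epidermis markers and the summed chemosensory receptor genes, in the epidermal (left) and muscle (right) regions, with conditional binomial 95% intervals. The dashed line is the median of all genes with at least 30 UMIs and the dotted line is where 0 falls after TMM scaling. In the epidermal region Slc2a1, Eno3, Pgam2, Pfkm and Gapdh lie to the right of both lines, and Aldoa, Pkm and Hk2 to the left.

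Along each section, the regions were divided into 4 segments of nearly equal spot number, which share 1 mouse and are no replicates. Slc2a1 ranged over 325 to 387 CPM in the epidermal segments of the S1pr2 f/f section and 703 to 1271 CPM in those of the S1pr2 f/f K14-Cre section, without overlap. In the muscle segments it ranged over 91.7 to 225 CPM and 11.9 to 77.2 CPM, again without overlap of the values and in the other direction. The muscle segments of Slc2a1 in the S1pr2 f/f K14-Cre section rested on 2 to 14 UMIs. The interval of their highest value, 42.2 to 130 CPM, overlapped that of the lowest S1pr2 f/f value, 58.2 to 138 CPM. Muscle segments of the S1pr2 f/f section had 3807 to 4224 CPM of Eno3 and those of the S1pr2 f/f K14-Cre section 6498 to 8718 CPM. The epidermal segments of Aldoa did not overlap in value either, at 929 to 1187 CPM and 427 to 916 CPM. Nor did those of Pfkm in the epidermal regions, or of Hk2, Pfkm, Pgam2, Eno3 and Pkm in the muscle regions. The intervals of the nearest Aldoa segments, 822 to 1047 CPM and 750 to 1108 CPM, did overlap. So did those of the nearest muscle segments of Hk2, Pgam2 and Pkm, whereas those of Pfkm and Eno3 in muscle did not. The epidermal Pfkm segments rested on 1 to 9 UMIs in the S1pr2 f/f and 7 to 12 in the S1pr2 f/f K14-Cre section. The interval of the segment with 1 UMI, 0.36 to 78.7 CPM, covered all values of the other section. The lowest muscle segment of Hk2 in the S1pr2 f/f section also held 1 UMI, with an interval of 0.39 to 85.5 CPM. The share of all genes without overlap was not counted, so a lack of overlap is not read as particular to these genes. Segments were compared in CPM only. Their overlap after TMM or after division by marker UMIs was not examined, and the ratios between the sections given above moved with such scaling. Hk2 overlapped in the epidermal segments, at 46.4 to 172 CPM and 43.2 to 147 CPM.

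Other genes of the list also differed between the sections. In the epidermal regions 12 of 29 list genes were at least 2-fold higher in the S1pr2 f/f K14-Cre section and 4 lower, against 31.1% and 10.7% of all genes, with a median log2 ratio of 0.25 against 0.41. With TMM 3 were higher and 11 lower, against 9.75% and 35.8%, which is near the background. Pgk1, phosphoglycerate kinase, was lower in both regions, with 237 and 62 UMIs in the epidermal regions (log2 ratio -1.74, -2.17 to -1.34) and 247 and 83 in the muscle regions (-1.03, -1.40 to -0.66). Bpgm, which makes bisphosphoglycerate, gave 29 and 117 UMIs in the epidermal regions, a log2 ratio of 2.20 (1.61 to 2.84) that TMM moved by -1.004. Blood markers were at 107 CPM in the S1pr2 f/f and 304 CPM in the S1pr2 f/f K14-Cre epidermal region, and their part in the Bpgm ratio was not tested. In the muscle regions 2 of 38 list genes were higher, among them Pgm1 at 1.14, and 4 lower, against 3.42% and 14% of all genes, near the background. With TMM 4 were higher and 2 lower, against 4.16% and 12.5%. These counts were small and depended on the scaling. Pdk4, a kinase induced by fasting and fat use, gave 185 and 16 UMIs, a log2 ratio of -2.99 (-3.82 to -2.25). Over all tissue spots 15 of 54 list genes were higher and 3 lower, the members Gapdh, Pfkm, Pgam2 and Eno3 among the higher, against 26.1% and 4.69% of 16838 genes. With TMM 9 list genes were higher and 5 lower, with 3 members in place of 4 among the higher, against 16.6% and 11.4%. With and without TMM these list counts over all spots were near the background. The muscle markers were 3.27-fold higher in the same comparison.

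Gapdh stood apart from the other members. It gave 34 UMIs (6.40 CPM, 4.43 to 8.94) over all 1282 spots of the S1pr2 f/f section and 47 UMIs (16.5 CPM, 12.1 to 22.0) over all 981 spots of the S1pr2 f/f K14-Cre section. The next lowest member, Hk2, gave 474 and 407 UMIs, and Aldoa gave 15584 and 11505. Levels of different genes cannot be compared in a probe assay, since the number and efficiency of the probes differ, and those of Gapdh are not given in the sources used here. Gapdh exceeded 38.8% of all genes in the S1pr2 f/f section and 49.0% in the S1pr2 f/f K14-Cre section, whereas Hk2 exceeded 87.9% and 94.0%. Receptor genes gave a mean of 11.8 and 17.0 UMIs, and 8 and 11 of the 1226 had at least as many UMIs as Gapdh. Gapdhs, the testis paralog, gave 27 and 28 UMIs.

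By region Gapdh gave 4 UMIs in the epidermal and 8 in the muscle region of the S1pr2 f/f section, and 21 and 10 in the S1pr2 f/f K14-Cre section. The muscle over epidermal log2 ratio was 0.80 (-1.11 to 2.98) and -0.92 (-2.17 to 0.23), so no difference between regions was detectable at this depth. Between the sections it was 2.58 (1.02 to 4.59) in the epidermal regions, where receptor genes together stood at 3.17, and 0.87 (-0.62 to 2.41) in the muscle regions. The UMIs were also uneven, with the 10 of the muscle region of the S1pr2 f/f K14-Cre section lying in 2 spots. Genes whose levels over the clusters were most like that of Gapdh were Cops7a, Cct7 and Lman1, at correlations of 0.795, 0.778 and 0.777. Gapdh gave between 0 and 13 UMIs in a cluster, and the minimum of 500 UMIs set for the compared genes was not applied to it. These correlations therefore rest on few counts and are not read as shared expression.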

How the data were processed

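The deposited matrices held counts of UMIs, not normalized by the authors, for each gene in each spot over tissue, with a separate list of array positions. Of the tissue spot barcodes, 357 were on the lists of both sections. Each spot was placed by looking up its barcode in the position list of its own section. The file header names Space Ranger 3.0.0, and the submitters' processing notes give mm10. Libraries were made with the Visium CytAssist kit for FFPE tissue, and the probe set is not given in the sources used here.

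Spots with at least 50 UMIs (46 and 7 were left out) were clustered within each section, without the pathway genes, in Python 3.11.15 (scanpy 1.11.5, Leiden from igraph 0.11.9 at resolution 1 and seed 0, on 15 neighbours in 20 components of 2000 variable genes). A cluster was named where at least 50% of a marker list, and at least 3 markers, had at least 5 UMIs and 2-fold over the other spots. UMIs were summed per region and divided by its total. Intervals are exact Poisson, Clopper-Pearson or conditional binomial, and ratios over all genes carried a pseudocount of 0.5 UMIs. The ratio was tested on simulated data. TMM factors came from edgeR 4.0.16 in R 4.3.3. Aldoa has 2 rows of identical symbol, and ENSMUSG00000030695 was used. The comparison planned for Eno1 plus Slc2a1 became one of Slc2a1 alone. Named were the members, counterparts of the same step, list genes with at least 100 UMIs and, for Eno3, Slc2a1 and Gapdh, the 3 genes most alike over clusters. Members, lists and markers were chosen with earlier results of these data known. Alternatives were resolution 0.5, spots ranked by marker share, a minimum of 500 UMIs, connected groups of at least 20 spots, TMM, muscle markers left out of the total, the mean of spot CPM and subtraction of the mean receptor gene. Chosen after seeing the data were scaling to marker UMIs and leaving out the shallow muscle cluster of the S1pr2 f/f section.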

Additional observations from a re-analysis of the deposited data

Results flagged for a closer look

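Several genes had opposite signs in the 2 regions or sections, and none of these differences was tested. The S1pr2 f/f K14-Cre over S1pr2 f/f log2 ratio of Slc2a1 was 1.62 in the epidermal and -1.65 in the muscle region. That of Aldoa was -0.67 and 0.12, and that of Pkm -0.26 and 0.36. The muscle over epidermal log2 ratio of Gapdh was 0.80 in the S1pr2 f/f section and -0.92 in the S1pr2 f/f K14-Cre section, both on few UMIs and with intervals that hold 0. A second row of the symbol Aldoa (ENSMUSG00000114515), not used above, held 17 UMIs in the S1pr2 f/f and 17 in the S1pr2 f/f K14-Cre section. Both counts were above the floor of 3.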

How the results depend on the processing

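No paired analysis was possible because each genotype has 1 section. Of the 17 member ratios past 2-fold, all 153 values under an alternative kept their sign and 145 stayed past 2-fold. The summed Eno3, Pfkm and Pgam2 had a muscle over epidermal log2 ratio of 6.19 in the S1pr2 f/f section, which became 5.77 at resolution 0.5, 5.71 with TMM and 5.60 as a mean over spots. In the S1pr2 f/f K14-Cre section it was 5.63, and 5.41 in spots ranked by markers, 6.22 with TMM, 5.89 without muscle markers in the total and 5.42 as a mean over spots. That of Slc2a1 went from -1.33 to -1.81 with TMM and -1.002 as a mean over spots in the S1pr2 f/f section, and from -4.60 to -4.01 with TMM in the S1pr2 f/f K14-Cre section. Between the sections, the summed members in the epidermal region went from 0.23 to -0.78 with TMM, 0.12 as a mean over spots, 0.44 with the receptor mean taken off and 1.35 per epidermis marker UMI. In the muscle region they went from 0.47 to 0.70 at resolution 0.5, 0.54 with TMM, 0.59 without muscle markers in the total, 0.42 as a mean over spots and -0.37 per muscle marker UMI. Gapdh over all spots went from 6.40 to 4.33 CPM as a mean over spots and 4.37 CPM with the receptor mean taken off in the S1pr2 f/f section, and from 16.5 to 11.9 CPM with it taken off in the S1pr2 f/f K14-Cre section. With no UMI minimum, list genes lower in muscle went from 9 to 16 in the S1pr2 f/f K14-Cre section, those higher in the S1pr2 f/f K14-Cre epidermal region from 12 to 30, and those lower in its muscle region from 4 to 10. With at least 100 UMIs, those higher and lower in that epidermal region became 5 and 1, and those higher over all spots went from 15 to 9. The cause of these changes was not tested. The 2 libraries of unequal depth, 1 mouse each, set the limit on every comparison between the sections.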
